A study of Mus musculus with 26 samples.

Results

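The PIWI proteins are the germline branch of the Argonaute family, and in the mouse they are MIWI (encoded by *Piwil1*), MILI (*Piwil2*) and MIWI2 (*Piwil4*). The genes were picked by name and not by a cut-off on measured values, though with earlier results of these data known. They are 3 of the 51124 genes in the deposited expression table. The study built knock-in mice in which the 3′ UTR of *Ythdc2*, an RNA helicase gene of meiotic germ cells, carries binding sites for the pachytene piRNA piR-A, to ask how MIWI and MILI slice a target in vivo. The expression of all genes was measured by RNA-seq of total RNA from adult whole testes, in 2 libraries for each of 3 genotypes, every library from another mouse. Libraries N1 and N2 came from wild-type (WT) mice. Libraries N3 and N4 came from *10xPerf* mice, in which 10 sites pair with piR-A along their whole length. Libraries N5 and N6 came from *10xBulge* mice, in which 10 sites do not pair at piRNA positions 10 and 11. The knock-in lines were made by CRISPR/Cas9 in embryos of the hybrid B6D2F1/J and kept as homozygotes, so the genetic background of single mice is mixed, and no PIWI gene was targeted in any line. The 20 libraries of small RNAs bound to MILI or MIWI were not analysed here.

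Each PIWI protein holds a piRNA that guides it to RNAs with matching sequence. MIWI and MILI are slicers that cut the paired RNA in the cytoplasm, whereas MIWI2 acts in the nucleus, where it directs DNA methylation of transposons. MILI is present from fetal germ cells to round spermatids, MIWI appears in pachytene spermatocytes and lasts into spermatids, and MIWI2 is best known from fetal gonocytes and from a small set of spermatogonia in the adult. Loss of any of these proteins makes male mice sterile.

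Levels are read counts per gene, divided by a size factor of each library (normalized counts). Depth was about 41.1 to 61.6 M reads per library, and a value of 3 reads corresponded to 2.73 to 3.63 normalized counts. Spermatid markers summed to 568150 to 789220 normalized counts in the WT and *10xPerf* libraries, and to 2713 in N5 and 1350 in N6. Markers of spermatocytes, spermatogonia, Sertoli cells, Leydig cells and macrophages were above 0 in every library. N1 and N2 differed along the GC content of genes (Spearman's rho = 0.615 across 12426 protein-coding genes, a description since genes are not replicates), as did N5 and N6 (0.518), and N3 and N4 differed less (-0.242). *Ythdc2* itself ranged from 827 to 2412 normalized counts in WT, from 1136 to 1334 in *10xPerf* and from 1202 to 2458 in *10xBulge*. Since the insertions do not delete the gene, its level does not check the genotype labels. Genotypes were compared with limma on log2(normalized count + 1) over the 23782 genes that reached 10 in 2 or more libraries, and a gene was called where the adjusted p was under 0.1. In whole testis, fewer cells of a type and less RNA per cell cannot be told apart.

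*Piwil1* (ENSMUSG00000029423.11, chromosome 5) was the most abundant PIWI mRNA and *Piwil4* (ENSMUSG00000036912.19, chromosome 9) the least, with *Piwil2* (ENSMUSG00000033644.6, chromosome 14) between them. Levels were set per kilobase of the longest annotated transcript, which is 4016 nt for *Piwil1*, 4916 nt for *Piwil2* and 3304 nt for *Piwil4*. *Piwil1* ranged from 4328 to 8899 normalized counts per kilobase over the 6 libraries, *Piwil2* from 1280 to 4477 and *Piwil4* from 8.19 to 35.4. This order held within each of the 6 libraries. Across libraries the ranges of *Piwil1* and *Piwil2* overlapped, because *Piwil1* in N6 was below *Piwil2* in N5, while those of *Piwil2* and *Piwil4* were far apart, with *Piwil2* 91.5 to 285 times as high as *Piwil4* within a library. By mean normalized count, *Piwil1* ranked 171 among 21789 protein-coding genes, *Piwil2* 590 and *Piwil4* 14770. The table listed no gene of identical sequence for any of them. Of genes on chromosome 9 picked as overlapping or lying beside *Piwil4*, the long noncoding RNA *Gm10706* was at most 0.988 normalized counts. The pseudogene *Gm15586*, picked in the same way, was at 0 in every library.

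**Figure D1:**
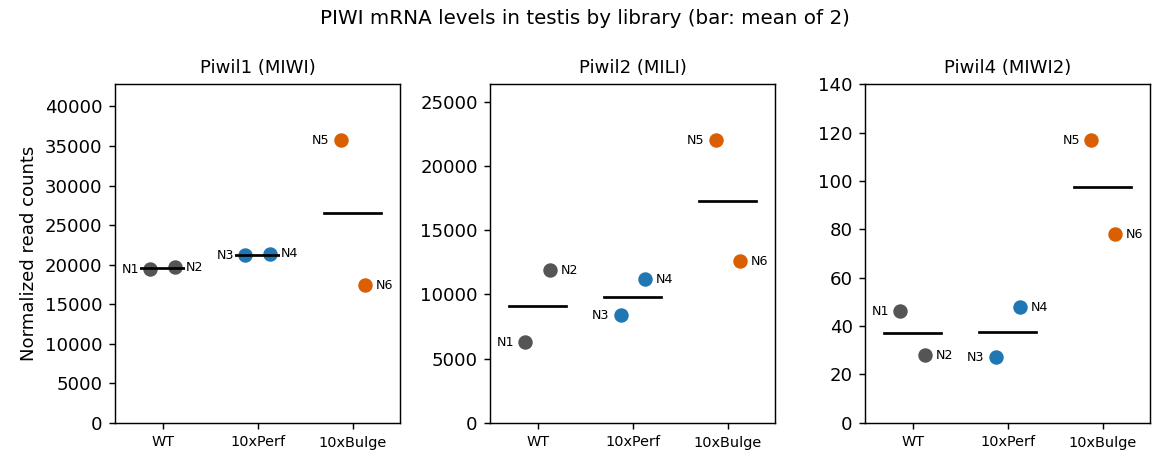
Normalized read counts (linear axes from 0) of *Piwil1*, *Piwil2* and *Piwil4* in each library, with 1 point per mouse and a bar at the mean of the 2 libraries of a genotype. For *Piwil2* and *Piwil4* both *10xBulge* libraries, N5 and N6, lie above the other 4, whereas for *Piwil1* N5 is the highest and N6 the lowest of the 6.

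*Piwil1*, which encodes the slicer MIWI of pachytene spermatocytes and round spermatids, was nearly level between WT and *10xPerf* and uneven within *10xBulge*. The WT libraries N1 and N2 held 19394 and 19694 normalized counts, N3 and N4 of *10xPerf* held 21159 and 21353, and N5 and N6 of *10xBulge* held 35738 and 17380. The *10xBulge* values thus lay on either side of all other libraries, 2.06-fold apart, while the WT and *10xPerf* pairs each agreed closely. The means were 19544 ± 212 (SD, n = 2) in WT, 21256 ± 137 in *10xPerf* and 26559 ± 12981 in *10xBulge*. The log2 fold change of *10xBulge* against WT was 0.35 (SE 0.46, 95% confidence interval -0.69 to 1.39, limma adjusted p = 0.618). It was -0.17 when N5 was left out and 0.87 when N6 was left out, so that N5 alone set the direction. Against *10xPerf* the log2 fold change of *10xBulge* was 0.23 (SE 0.46, 95% confidence interval -0.81 to 1.27, limma adjusted p = 0.748), and -0.29 without N5.

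The uneven pair moved closer once the trend with GC content was taken out of each library. *Piwil1* was then at 16067 and 18800 in WT, 22758 and 19060 in *10xPerf*, and 32251 and 25365 in *10xBulge*, with both *10xBulge* libraries above the other 4. The log2 fold change of *10xBulge* against WT was 0.72 in these values (limma adjusted p = 0.0689), which passes the threshold of 0.1. GC removal also moved the median over all genes to 0.21, and 6089 of 23614 genes were called higher. Over the 16 alternatives tried the adjusted p of this comparison ranged from 0.0689 to 0.807. The part of GC content in the difference between N5 and N6 was not tested.

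*Piwil2* encodes MILI, the slicer found from gonocytes to round spermatids, and its highest values were those of *10xBulge*. The WT libraries N1 and N2 held 6290 and 11865 normalized counts, N3 and N4 of *10xPerf* held 8378 and 11175, and N5 and N6 of *10xBulge* held 22008 and 12586. Both *10xBulge* values were above those of the other 4 libraries, but N6 exceeded N2 by little, and the WT values were themselves 1.89-fold apart. The means were 9078 ± 3942 (SD, n = 2) in WT, 9776 ± 1978 in *10xPerf* and 17297 ± 6663 in *10xBulge*. The log2 fold change of *10xBulge* was 0.95 against WT (SE 0.48, 95% confidence interval -0.15 to 2.04, limma adjusted p = 0.183) and 0.78 against *10xPerf* (SE 0.48, 95% confidence interval -0.31 to 1.87, limma adjusted p = 0.26). Neither passed the threshold, and the intervals include no change as well as a 4.10-fold rise against WT and a 3.66-fold rise against *10xPerf*.

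The call for *Piwil2* depended on how the libraries were put on a common scale. Scaled to equal library totals, which moved the median gene to 0.36, the log2 fold change of *10xBulge* against WT was 1.33 (limma adjusted p = 0.0442). With the GC trend removed, which moved the median gene to 0.21, it was 1.08 (limma adjusted p = 0.0269), and without N6 it was 1.35. It dropped to 0.49 without N1 and to 0.54 without N5.

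*Piwil4* encodes MIWI2, the nuclear PIWI protein, and was the PIWI gene that passed the test. The WT libraries N1 and N2 held 46.2 and 28.0 normalized counts, N3 and N4 of *10xPerf* held 27.0 and 47.8, and N5 and N6 of *10xBulge* held 117 and 78.0. The *10xBulge* libraries were above all others, while WT and *10xPerf* covered the same range. Means were 37.1 ± 12.9 (SD, n = 2) in WT, 37.4 ± 14.7 in *10xPerf* and 97.5 ± 27.5 in *10xBulge*. *Piwil4* was 2.61-fold higher in *10xBulge* than in WT (log2 fold change 1.38, SE 0.55, 95% confidence interval 0.14 to 2.62, limma adjusted p = 0.0967). Against *10xPerf* it was also 2.61-fold higher (log2 fold change 1.38, SE 0.55, 95% confidence interval 0.14 to 2.62, limma adjusted p = 0.0916). All 3 comparisons of genotypes draw on the same 6 libraries, so these results share samples.

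The call for *Piwil4* was close to the threshold and the direction was steadier than the call. In the comparison with WT the log2 fold change was 1.73 without N1 (limma adjusted p = 0.166), 1.03 without N2 (0.333), 1.09 without N5 (0.268) and 1.67 without N6 (0.0851), and 1.38 without N3 (0.132) or N4 (0.137). In the comparison with *10xPerf* it was 0.98 without N3 (limma adjusted p = 0.412), 1.78 without N4 (0.125), 1.09 without N5 (0.266), 1.67 without N6 (0.0782), and 1.38 without N1 (0.124) or N2 (0.122). With library totals the values were 1.76 and 1.63 (limma adjusted p = 0.0321 and 0.0412).

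Between *10xPerf* and WT no difference in a PIWI gene passed the test. The log2 fold change was 0.12 for *Piwil1* (95% confidence interval -0.92 to 1.16, limma adjusted p = 0.953), 0.16 for *Piwil2* (-0.93 to 1.25, limma adjusted p = 0.941) and -0.00036 for *Piwil4* (-1.24 to 1.24, limma adjusted p = 1). Even for *Piwil1*, with tight pairs in both genotypes, the interval reaches from a 0.529-fold to a 2.24-fold level, because the fit draws part of its spread from all 6 libraries and all genes. The sign of the *Piwil2* value turned to -0.29 without N1 and -0.04 without N4, and that of *Piwil4* to 0.13 with library totals, 0.35 without N1 and 0.40 without N3. In this comparison 0 of the 3 genes were called (0 at an unadjusted p under 0.05 as well), beside 0.467% of the 23782 tested genes called higher and 0.492% called lower. In *10xBulge* against WT 1 of 3 was called higher and 0 lower, beside 11.4% of all tested genes higher and 23.0% lower. Against *10xPerf* 1 of 3 was called higher and 0 lower, beside 12.9% and 24.1%. Of the genes called in *10xBulge* against WT, 33.2% were higher as deposited, 55.0% once library totals were made equal and 52.5% after GC removal, and against *10xPerf* the shares were 34.9%, 49.8% and 53.5%. All 3 genes passed the filter on low values, and whether the change of *Piwil4* differs from those of *Piwil1* and *Piwil2* was not tested.

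**Figure D2:**
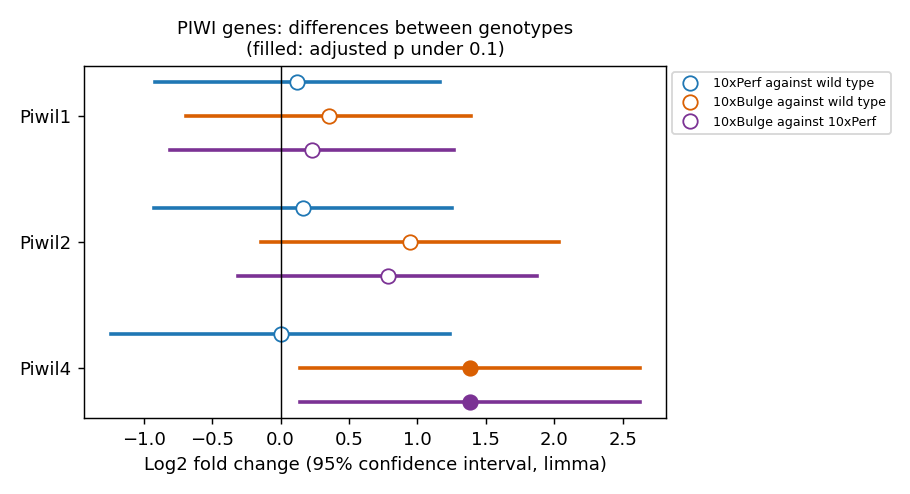
Log2 fold changes of the PIWI genes on the log2(normalized count + 1) scale for the 3 pairs of genotypes, with 95% confidence intervals from limma and filled points where the adjusted p was under 0.1. Of the 9 intervals, those of *Piwil4* in *10xBulge* against WT and against *10xPerf* lie above 0, and the other 7 include it.

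The balance between the slicers MIWI and MILI was read within each library, where the scaling of libraries drops out but a trend with GC content does not. Per kilobase, *Piwil1* was 3.77 times as high as *Piwil2* in N1 of WT and 2.03 times in N2, 3.09 times in N3 of *10xPerf* and 2.34 times in N4, and 1.99 times in N5 of *10xBulge* and 1.69 times in N6. The lowest values were those of *10xBulge*, with N2 of WT just above them. On the log2 scale of normalized counts the difference of *Piwil1* and *Piwil2* was 1.18 ± 0.63 (SD, n = 2) in WT, 1.14 ± 0.28 in *10xPerf* and 0.58 ± 0.17 in *10xBulge*. The difference between *10xBulge* and WT was -0.60 and that between *10xBulge* and *10xPerf* -0.55 (two-sided exact permutation p = 0.333 for each), which is the smallest p that 2 libraries against 2 allow. The difference between *10xBulge* and WT shrank to -0.15 when N1 was left out and to -0.36 with the GC trend removed. With the GC trend removed, that between *10xBulge* and *10xPerf* was -0.59. Between *10xPerf* and WT the difference was -0.04 (exact permutation p = 1).

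**Figure D3:**
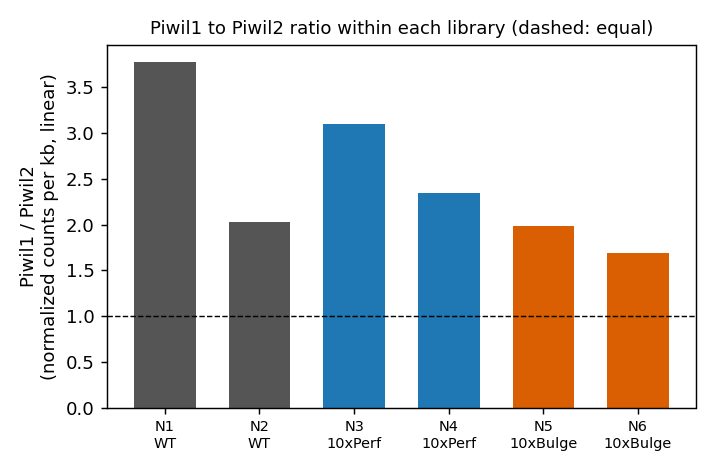
Ratio of *Piwil1* to *Piwil2* in normalized counts per kilobase of the longest transcript (linear axis from 0), 1 bar per library, with a dashed line at equal levels. *Piwil1* is above *Piwil2* in all 6 libraries, from 1.69 in N6 to 3.77 in N1.

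The genes that act with PIWI proteins were described from a list of 35 piRNA pathway genes, grouped by role, all of which passed the filter. In *10xPerf* against WT none was called, beside 0.467% of all tested genes called higher and 0.492% lower. At an unadjusted p under 0.05 by limma, the tool used, 0 passed, beside 781 of 23782 tested genes higher and 667 lower. The median log2 fold change of the list was 0.24, from -0.60 to 1.00, beside 0.018 over all tested genes. In *10xBulge* against WT 3 of 35 were called higher and 6 lower, beside 11.4% of all tested genes higher and 23.0% lower, with a median of 0.37 beside -0.026. With library totals or with GC removal 13 were called higher in this comparison. Over all genes, 5789 of 23770 were then called higher with library totals and 6089 of 23614 with GC removal. Against *10xPerf* 6 of 35 were called higher and 7 lower, beside 12.9% and 24.1%, with a median of 0.06 beside -0.067. With GC removal 12 were called higher against *10xPerf*, beside 6445 of 23614 over all genes. Calls were thus common over all genes in both comparisons, as they were on the list. The higher calls were sensitive to single libraries, with 7 against WT without N2 and 1 without N3 or N4, and 0 against *10xPerf* without N3.

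Cofactors of slicing moved together and opposite to *Piwil4*. GTSF1 proteins bind PIWI proteins and speed up target cleavage. All 3 family genes were called lower in *10xBulge* in both comparisons, beside 23.0% of all tested genes against WT and 24.1% against *10xPerf*. *Gtsf1l* was at 8479 and 9364 normalized counts in WT, at 9663 and 12283 in *10xPerf*, and at 383 and 108 in *10xBulge*. For *Gtsf1l* the log2 fold change was -5.44 against WT and -5.73 against *10xPerf* (limma adjusted p = 9.33e-05 and 6.54e-05). The other members, singled out after their values were seen, fell by less: *Gtsf2* had a log2 fold change of -3.25 (limma adjusted p = 0.000162) and *Gtsf1* of -1.39 (limma adjusted p = 0.0275) against WT. *Gtsf1* was at 8817 to 11596 in the 4 libraries of WT and *10xPerf* and at 3855 and 3463 in *10xBulge*, so that no values overlapped. All 12 spermatid markers were also called lower in *10xBulge* against WT (median log2 fold change -7.31), and their part in the fall of these genes and of the other lower calls on the list was not tested.

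Tudor domain proteins bind methylated arginines of PIWI proteins and gather them in germ granules. None of the 8 Tudor genes was called in *10xBulge* against WT, beside 11.4% of all tested genes called higher and 23.0% lower. Their log2 fold changes in that comparison ran from -0.95 to 1.06. Against *10xPerf*, where 12.9% of all tested genes were called higher and 24.1% lower, 1 was called, lower. This was *Rnf17*, at 4424 and 9884 in WT, 10801 and 8121 in *10xPerf*, and 2717 and 4318 in *10xBulge* (log2 fold change -1.45 against *10xPerf*, limma adjusted p = 0.0556, lost under 5 of 16 alternatives). In *10xPerf* against WT all 8 Tudor genes had values above 0, beside 12143 of 23782 tested genes, with a median of 0.63. None of the 8 was called, beside 0.467% of all tested genes higher and 0.492% lower. N1 was the lowest of the WT and *10xPerf* libraries for each of the 8 genes.

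PRMT5 with its partner WDR77 places the arginine methyl groups that Tudor proteins read. Neither gene passed the test in *10xBulge* against WT, and both were called higher against *10xPerf*. Of all tested genes, 11.4% were called higher against WT and 12.9% against *10xPerf*. *Prmt5* was at 2876 and 1967 in WT, 1653 and 2405 in *10xPerf*, and 6061 and 3663 in *10xBulge*, and both *10xBulge* values were above the rest. Its log2 fold change against *10xPerf* was 1.24 (limma adjusted p = 0.0637), and that of *Wdr77*, named after its values were seen, was 1.00 (limma adjusted p = 0.0798). The call was lost under 4 of 16 alternatives for *Prmt5* and 7 of 16 for *Wdr77*.

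Among 10 genes that make, trim or methylate piRNAs, 2 were called higher in *10xBulge* than in WT and 3 higher than in *10xPerf*, with 0 lower, beside 11.4% and 12.9% of all tested genes higher and 23.0% and 24.1% lower. *Fkbp6*, a co-chaperone in piRNA loading, was at 2783 and 2237 in WT, 1607 and 2359 in *10xPerf*, and 5847 and 4722 in *10xBulge*. For *Fkbp6* the log2 fold change was 1.07 against WT and 1.43 against *10xPerf* (limma adjusted p = 0.0792 and 0.0264). The others called, named after their values were seen, were *Exd1*, a partner of the piRNA machinery in germ granules, in both comparisons (1.04 against WT, limma adjusted p = 0.0854) and *Pnldc1*, the trimmer of piRNA 3′ ends, against *10xPerf* (1.27, limma adjusted p = 0.0642). *Pnldc1* was at 252 to 508 in the WT and *10xPerf* libraries and at 717 and 816 in *10xBulge*. Of 16 alternatives, 8 ended the call of *Fkbp6* against WT and 1 against *10xPerf*, 10 and 4 those of *Exd1*, and 5 that of *Pnldc1*.

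Of 5 genes for nuclear silencing with MIWI2, 2 fell and 1 rose in *10xBulge* in both comparisons, where 23.0% and 24.1% of all tested genes were called lower and 11.4% and 12.9% higher. *Dnmt3l*, a cofactor of DNA methyltransferases, was at 502 and 256 in WT, 440 and 411 in *10xPerf*, and 42.8 and 32.1 in *10xBulge* (log2 fold change -3.24 against WT, limma adjusted p = 0.000816). *Spocd1*, which encodes a nuclear partner of MIWI2, fell as well (-2.96 against WT, limma adjusted p = 0.00379), whereas *Dnmt3c*, the methyltransferase for young transposons, rose from 15.9 and 26.0 in WT to 102 and 111 in *10xBulge* (2.34, limma adjusted p = 0.0089). In *10xPerf* *Dnmt3c* was at 36.9 and 46.0, and the log2 fold change of *10xBulge* against it was 1.35 (limma adjusted p = 0.0783), which lost its call under 6 of 16 alternatives. *Spocd1* and *Dnmt3c* were named after their values were seen. Within this list the called genes thus went in opposite directions, and *Piwil4* shared the direction of *Dnmt3c*. Whether the listed genes act with MIWI2 in adult testis was not tested.

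Of 4 partners of MIWI in spermatids, the kinesin gene *Kif17* fell, from 29151 and 15951 in WT and 16590 and 17840 in *10xPerf* to 587 and 194 in *10xBulge* (log2 fold change -5.99 against WT, limma adjusted p = 5.15e-05), and the other 3 were not called. Of all tested genes, 23.0% were called lower and 11.4% higher in *10xBulge* against WT. The Argonautes of the microRNA pathway are the nearest relatives of the PIWI proteins. Of *Ago1*, *Ago2*, *Ago3* and *Ago4*, *Ago1* was called higher in *10xBulge*, at 1891 and 1052 beside 464 to 674 in the other libraries (log2 fold change 1.30 against WT, limma adjusted p = 0.0629). This call was lost under 7 of 16 alternatives, with 1.07 without N1 (limma adjusted p = 0.265) and 0.88 without N5 (limma adjusted p = 0.241). No Argonaute gene was called between *10xPerf* and WT, beside 0.467% of all tested genes called higher and 0.492% lower. At an unadjusted p under 0.05 by limma 0 Argonaute genes passed, beside 781 of 23782 tested genes higher and 667 lower.

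**Figure D4:**
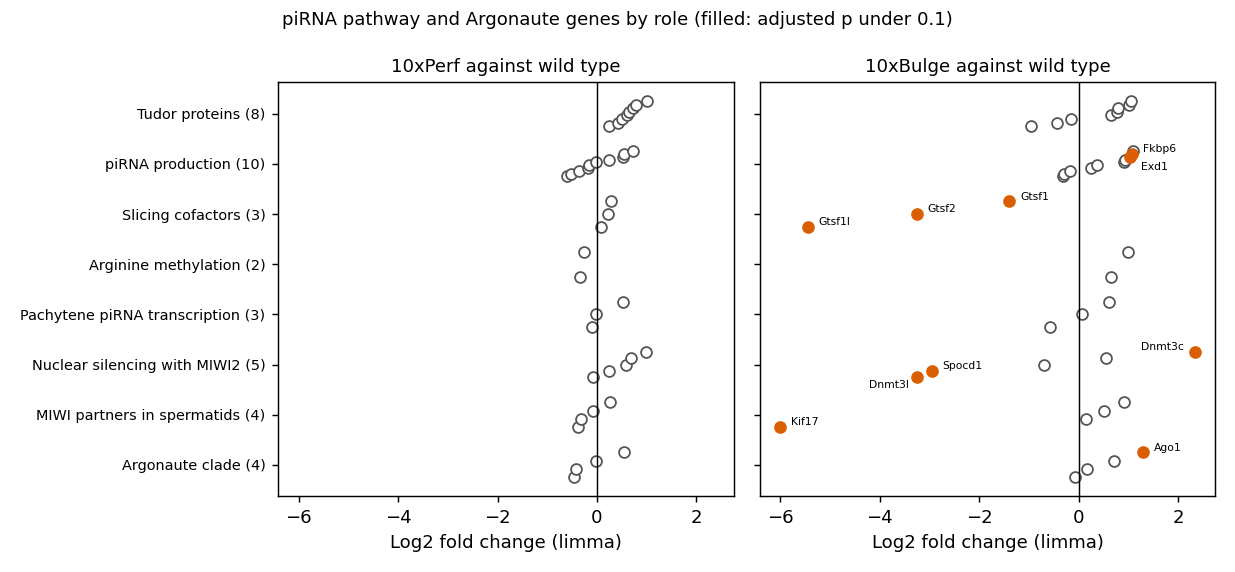
Log2 fold changes (limma, log2(normalized count + 1) scale) of the 35 piRNA pathway genes by role, and of the 4 Argonaute genes, in *10xPerf* against WT (left) and *10xBulge* against WT (right), 1 point per gene, filled and named where the adjusted p was under 0.1. No gene is filled on the left, and 10 are on the right, with the 3 GTSF1 family genes, *Dnmt3l*, *Spocd1* and *Kif17* below 0.

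The 3 listed transcription factors of pachytene piRNA genes were not called in any comparison. Called higher and lower were 0.467% and 0.492% of all tested genes in *10xPerf* against WT. In *10xBulge* these shares were 11.4% and 23.0% against WT, and 12.9% and 24.1% against *10xPerf*. *Mybl1* encodes A-MYB, the factor that drives pachytene piRNA precursors together with many piRNA pathway genes. It was named after its values were seen, and was at 2152 and 5110 in WT, 5351 and 4226 in *10xPerf*, and 2498 and 4859 in *10xBulge*. The log2 fold change of *Mybl1* in *10xBulge* against WT was 0.07 and that of *Btbd18*, a pachytene piRNA elongation factor, 0.61 (limma adjusted p = 0.322 for *Btbd18*). Because A-MYB is known to act on *Piwil1*, the RefSeq promoter windows of *Piwil1* and *Piwil4* (build GRCm38.p6, 250 bases before to 50 after the start) were searched on both strands for the MYB hexamer TAACGG, for its variant TAACTG, and for both with C in first place, which read CAACGG in the former case and CAACTG in the latter. At least 1 of these is present in 28.3% of 32851 such windows. The *Piwil1* window, chr5:128735996-128736295 on the forward strand with 67.7% GC, held 2 separate matches, both on the strand opposite to the gene, which lie 139 and 73 bases before the start. They are shown on the gene's strand with the hexamer in capitals, at chr5:128736095-128736124 and chr5:128736161-128736190.
Piwil1 match at 139: gtgtccacctcgCCGTTAacccagaggtct
Piwil1 match at 73: ggagggatctggCAGTTGgggctgttagca
Neither of the *Piwil4* windows, chr9:14740623-14740922 and chr9:14718338-14718637 on the reverse strand, held these letters. A match of letters is a description of the window and not a measured binding site.

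Cell type markers moved with the *10xBulge* libraries, and their values stand beside those of the PIWI genes. All 12 spermatid markers were called lower in *10xBulge* against WT, beside 23.0% of all tested genes, with a median log2 fold change of -7.31. *Piwil1*, which is also made in spermatids, had a value of 0.35. Within a library, *Piwil1* minus the median spermatid marker was -0.20 and -0.24 in WT on the log2 scale, -0.57 and -0.69 in *10xPerf*, and 8.11 and 7.80 in *10xBulge*. The spermatocyte markers summed to 145720 and 186350 normalized counts in WT, 199690 and 212050 in *10xPerf*, and 168890 and 123260 in *10xBulge*. Against WT 1 of 12 was called higher and 0 lower, beside 11.4% and 23.0% of all tested genes. Their log2 fold changes against WT were split, from -0.98 to 1.60, with a median of -0.03. Against *10xPerf* 0 of 12 were called higher and 1 lower, beside 12.9% and 24.1%, with a median of -0.44. Relative to the median spermatocyte marker, *Piwil1* was at 3.15 and 1.93 in WT, 1.99 and 2.31 in *10xPerf*, and 3.84 and 2.40 in *10xBulge*. N5 was the highest and the others overlapped.

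Spermatogonia markers and those of the somatic cells summed to more in both *10xBulge* libraries than in any other, and *Piwil4* was highest there too. The 10 spermatogonia markers summed to 14431 and 11587 in WT, 7721 and 12119 in *10xPerf*, and 25190 and 21006 in *10xBulge*, with 2 of 10 called higher against WT, beside 11.4% of all tested genes, and a median log2 fold change of 0.81. The 10 Sertoli cell markers summed to 61197 to 86716 in WT and *10xPerf* and to 284230 and 134040 in *10xBulge*, with 5 called higher and a median of 1.13. For the 8 Leydig cell markers the sums were 46943 to 83129, and 319240 and 150960 in *10xBulge* (6 called higher, median 1.77), and for the 6 macrophage markers 2427 to 4032, and 10364 and 7146 (5 called higher, median 1.47). Against *10xPerf* the numbers called higher in *10xBulge* were 6 of 10 for spermatogonia, 8 of 10 for Sertoli cells, 7 of 8 for Leydig cells and 6 of 6 for macrophages, beside 12.9% of all tested genes. In *10xPerf* against WT, no marker of these 6 lists was called, beside 0.467% of all tested genes called higher and 0.492% lower. At an unadjusted p under 0.05 by limma 0 markers passed, beside 781 of 23782 tested genes higher and 667 lower.

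The medians of the somatic lists thus bracketed the value of *Piwil4*, 1.38, and exceeded that of *Piwil2*, 0.95. Relative to the median Sertoli cell marker of its own library, *Piwil4* was at -5.54 and -6.25 in WT, -6.03 and -5.68 in *10xPerf*, and -5.71 and -5.55 in *10xBulge*, so the genotypes overlapped. Relative to the median spermatogonia marker it was at -4.46 and -5.22, -4.57 and -4.55, and -3.98 and -3.89, where the *10xBulge* libraries were above the rest. *Piwil2* relative to the median spermatogonia marker was at 2.59 and 3.46, 3.65 and 3.29, and 3.56 and 3.43, with overlap of all genotypes. The median spermatocyte marker gave another picture. Relative to it, *Piwil2* was at 0.65 to 1.53 in the WT and *10xPerf* libraries. In *10xBulge* it was at 3.14 in N5 and 1.94 in N6, both above the rest. The part of cell composition in the values of the PIWI genes was not tested.

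**Figure D5:**
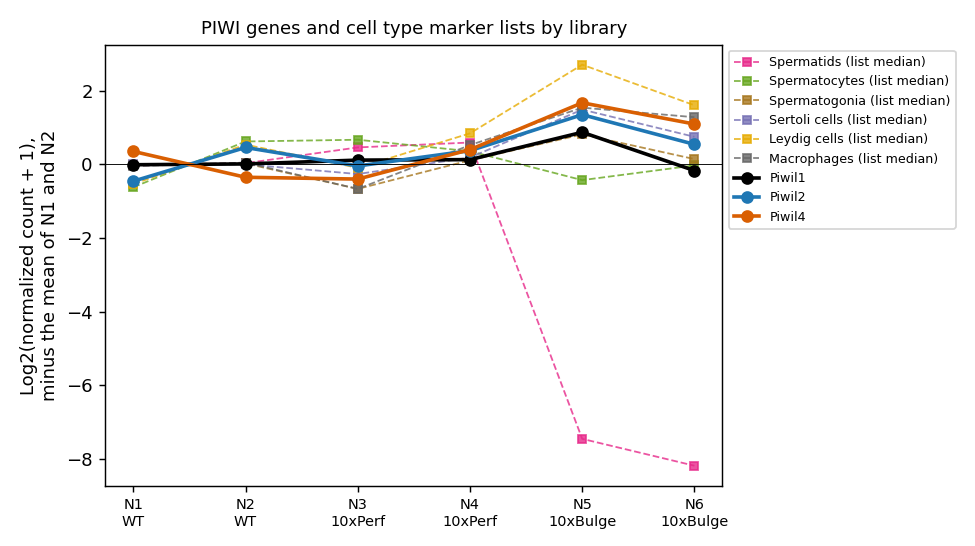
Log2(normalized count + 1) of the PIWI genes (solid lines, circles) and the median over each cell type marker list (dashed lines, squares) in the 6 libraries, each set to 0 at the mean of N1 and N2. The spermatid median falls in N5 and N6 while the spermatogonia and somatic medians and *Piwil4* are above 0 there.

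The genes whose profile over the 6 libraries was nearest to each PIWI gene were picked among 17549 protein-coding genes by Euclidean distance of centred log2 values. Nearest to *Piwil1* were *Cog7* (distance 0.111, Pearson's r = 0.991), *Cars* (0.117, r = 0.994) and *Pik3ap1* (0.163, r = 0.984), of which *Cog7* was at 2432, 2558, 2759, 2965, 4604 and 2316 normalized counts in N1 to N6. Nearest to *Piwil2* were *Afg3l2* (0.145, r = 0.994), *Rab3gap2* (0.147, r = 0.994) and *Ttf2* (0.177, r = 0.992). Nearest to *Piwil4* were *St3gal4* (0.126, r = 0.998), *Timp2* (0.226, r = 0.993) and *Cnpy2* (0.246, r = 0.998), and *St3gal4* was at 1294 and 814 in WT, 758 and 1228 in *10xPerf*, and 3209 and 2202 in *10xBulge*. These r values describe 6 libraries of 3 genotypes that share their scaling, and the nearest of so many genes are close by selection. None of these 9 genes was on the pathway or marker lists.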

How the data were processed

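Total RNA from adult testes of 6 mice was ribosome-depleted and sequenced as stranded single reads. The authors assigned reads with salmon (GC correction, GRCm39) and deposited DESeq2-normalized counts, used here as signal values. They are not whole numbers: only 10.7 to 14.9% of values above 0 were within 0.01 reads of a multiple of the smallest step, so no count test was run. The table also holds log2 fold changes and adjusted p-values that the authors computed with DESeq2 before it was deposited, which were not used. Depth was estimated from that step, and floors cover counting error only.

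The 23782 genes that reached 10 in 2 or more libraries were fitted on log2(value + 1) with limma 3.58.1 and a mean-variance trend in R 4.3.3, all 6 libraries together, with Benjamini-Hochberg adjustment and a threshold of 0.1. Fold changes are on that scale. Fits were tested on simulated data. Python 3.11.15 served for the rest. Transcript lengths and GC content came from GENCODE transcripts of GRCm38, and promoter windows from RefSeq, for *Piwil1* and *Piwil4* (*Piwil2* was not searched).

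The members, lists and naming rules were chosen with earlier results of these data known. Named were the PIWI genes, the 3 genes of nearest profile for each, and from each pathway role the gene with the smallest p in any comparison and any gene called in *10xPerf*. Labels name a mouse for each library. The spread behind the p-values is thus that between libraries, where mice and library preparation cannot be told apart. GC removal subtracted a loess trend of each library's deviation from the gene means (span 0.3), which also takes out any difference between genotypes that follows GC content. Alternatives were other scalings, filters, pseudocounts, thresholds, samples, no trend, GC removal and leaving out each library.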

Additional observations from a re-analysis of the deposited data

How the results depend on the processing

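No paired analysis was possible because every library came from another mouse and the labels give no number that ties libraries of different genotypes. Leaving out a library left a genotype with 1 library, which was assumed to vary like the others, with 2 residual degrees of freedom. Library totals moved the median of all genes to 0.15, 0.36 and 0.18 in *10xPerf* against WT, *10xBulge* against WT and *10xBulge* against *10xPerf*, and GC removal moved it to -0.03, 0.21 and 0.24. Log2 fold changes are those of limma, and the cause of the changes given here was not tested. Counting error limits *Piwil4*, at 27.0 to 117 normalized counts, more than *Piwil1* and *Piwil2*.

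*Piwil1*, not called in *10xPerf* against WT, kept its direction and stayed uncalled under all 16 alternatives. In *10xBulge* against WT it was 0.72 with GC removal (adjusted p = 0.0689, past the threshold) and ran from -0.17 to 0.87 over the left-out libraries, and in *10xBulge* against *10xPerf* from -0.29 to 0.75. *Piwil2* in *10xPerf* against WT ran from -0.29 to 0.62 over the left-out libraries. In *10xBulge* against WT *Piwil2* passed the threshold with library totals (1.33), GC removal (1.08) and without N6, and ran from 0.49 to 1.40, and against *10xPerf* it passed with library totals (1.03, adjusted p = 0.0954) and GC removal (1.05, adjusted p = 0.029) and ran from 0.38 to 1.19. *Piwil4* in *10xPerf* against WT was 0.13 with library totals and 0.0017 with a pseudocount of 10, and ran from -0.40 to 0.40 over the left-out libraries.

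In *10xBulge* *Piwil4* stayed higher under all 16 alternatives in both comparisons, and no longer passed under 9 of 16 in each. Against WT these were a value of 1 in at least 1 library (1.38, adjusted p = 0.147), the fit of only the 2 genotypes compared (1.38, adjusted p = 0.138), a threshold of 0.05 (1.38), a pseudocount of 0.1 (1.41, adjusted p = 0.111) and 5 of the left-out libraries (1.03 to 1.73 over all 6). Against *10xPerf* the same settings gave 1.38 (adjusted p = 0.139), 1.38 (adjusted p = 0.124), 1.38 and 1.41 (adjusted p = 0.106), and the left-out libraries 0.98 to 1.78. The adjusted p of *Piwil4* over these alternatives ranged from 0.0321 to 0.333 against WT and from 0.0334 to 0.412 against *10xPerf*.

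The within-library difference of *Piwil1* and *Piwil2* in *10xPerf* against WT was 0.23 with GC removal and ran from -0.49 to 0.40 over the left-out libraries. It kept its sign in *10xBulge*, from -1.04 to -0.15 against WT and from -0.75 to -0.35 against *10xPerf*. With GC removal it was -0.36 against WT and -0.59 against *10xPerf*.

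Higher calls on the pathway list in *10xBulge* against WT numbered 13 with library totals, 5 with upper quartile scaling, 1 with only the 2 genotypes, 1 at 0.05, 1 without the trend, 13 with GC removal and 1 to 7 over the left-out libraries. Against *10xPerf* they numbered 1 at 0.05, 12 with GC removal and 0 to 6 over the left-out libraries. The lower calls on the list stayed within 1.5 times of 6 and 7 under all alternatives. The 15 pathway and Argonaute genes named by the rule or called had 480 values in the *10xBulge* comparisons. Of these, 406 kept direction and stayed called or uncalled as in the main fit, and 63 kept direction and no longer passed. A further 11 kept direction and newly passed, and 0 turned sign.

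Over all genes, calls in *10xPerf* against WT were 72 higher and 76 lower with library totals, 44 and 53 among genes at 10 or more in all libraries, 214 and 190 in the fit of the 2 genotypes alone, 63 and 72 at 0.05, and 40 and 65 with a pseudocount of 0.1. Over the left-out libraries they were 11 to 204 higher and 10 to 186 lower. In *10xBulge* against WT 5789 were higher with library totals, 1512 with only the 2 genotypes, 1370 at 0.05, 6089 with GC removal and 636 to 2858 over the left-out libraries, and 2926 were lower with at least 10 in every library. Against *10xPerf* 5122, 1725 (at 0.05) and 6445 were higher, with 418 to 3286 over the left-out libraries, and 3064 were lower with at least 10 in every library, with 3730 to 5812 over the left-out libraries.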
